A study of Mus musculus with 6 samples.

Results

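The lipoprotein lipase axis was followed in epididymal white adipose tissue (eWAT) through 10 genes, Lpl, Gpihbp1, Lmf1, Angptl4, Angptl8, Angptl2, Vldlr, Apoe, Apoc1 and Lrp1, taken by gene name from the 55039 genes of the deposited tables. The eWAT came from male C57BL/6 mice that were 6 to 7 weeks old when the experiment began. Mice of the cachexia group (CAC) carried Lewis lung carcinoma (LLC) cells, a mouse lung tumor line, injected under the skin in PBS, and control mice (CONT) were given PBS alone. All were killed 28 days later, and mRNA of 3 CAC and 3 CONT mice was sequenced, 1 library per mouse, so that p-values measure the spread between these 6 mice. All 10 genes passed the filter on low counts.

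Lipoprotein lipase hydrolyses the triglyceride of circulating chylomicrons and very low density lipoproteins at the capillary wall, and it is how adipose tissue takes in fatty acids from the blood. Adipocytes make the enzyme, LMF1 lets it fold, and GPIHBP1 carries it across the endothelial cell, while proteins of the angiopoietin-like family set its activity according to feeding and fasting. Apolipoproteins on the particle and receptors of the LDL receptor family then govern how the remnants are taken up.

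Of these genes, Apoe and Lrp1 were the ones whose 3 CAC libraries all lay above the 3 CONT libraries. Mean Apoe was 1.59-fold and mean Lrp1 2.75-fold higher in CAC. Lpl had a 1.56-fold lower mean in CAC, but its libraries overlapped, as did those of the other 7 genes. An adjusted p under 0.05 from the quasi-likelihood test of edgeR was reached by 0 of the 10, against 0% of the 17296 genes tested. With an unadjusted p under 0.05, 1 gene was higher in CAC (Lrp1, background 6.31%) and 0 were lower (background 6.95%). The 2 genes without overlap were higher, beside 11.8% of all genes, and 0 were lower, beside 10.7%. The fold change was positive in 5 of the 10 genes and negative in 5, with a median log2 fold change of -0.02 against -0.06 over all genes tested. Without CONT replicate 1, a library that stood apart, the median of the 10 genes was 0.49 against -0.03 over all genes by edgeR, and 0.54 against -0.02 by DESeq2. DESeq2, the tool of the study, called 1 of the 10 genes higher, Apoe, where it called 3.18% of its 17292 genes higher.

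**Figure D1:**
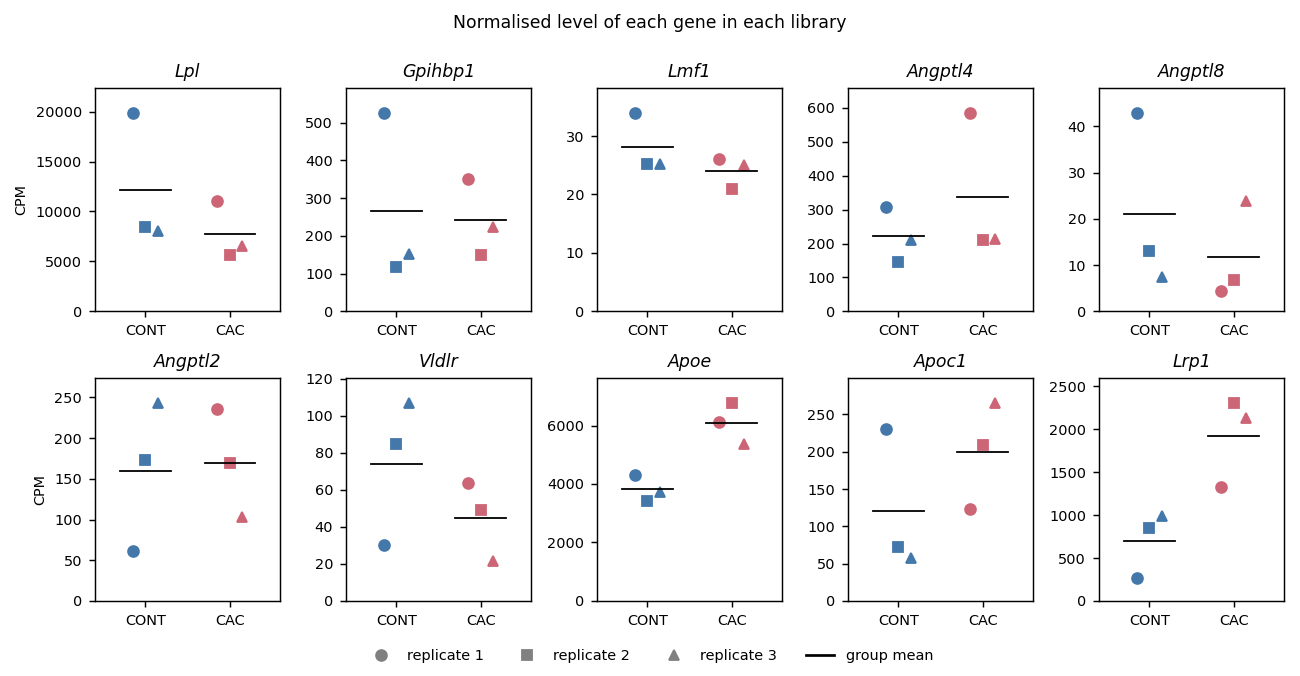
Level in CPM (linear axis from 0) of the 10 genes in the 3 CONT (blue) and 3 CAC (red) libraries, 1 panel per gene, with a black line at each group mean and the replicate number given by the marker shape. CAC libraries lie above all CONT libraries for Apoe and Lrp1, and CONT replicate 1 is the highest or the lowest CONT library in every panel.

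The libraries held 15713794 to 25926425 counts. Levels are given as CPM, counts scaled to library size, of which 1 stood for 11.2 to 26.5 reads. CONT replicate 1 stood apart from the other 5. Mitochondrial genes took 30.2% of its counts against 3.89 to 5.04% elsewhere, and its levels followed gene length. Against the mean of CONT replicates 2 and 3, its median log2 level was 1.22 for genes of up to 1000 bases and -0.45 for genes over 8000 bases, while in the CAC libraries the like medians stayed between -0.13 and 0.18. Fold changes without this library are given for each of the 10 genes. Of the 15 adipocyte markers, 5 had a positive and 10 a negative fold change. Adipoq was at 1692 to 3372 CPM in all libraries, but Lep was at 3.996 and 0.415 CPM in CAC replicates 2 and 3 against 409 to 697 CPM in the other 4, and Adrb3 at 142 and 45.1 CPM against 564 to 692 CPM. Summed markers of fibroblasts and progenitors (1395 to 2151 CPM in CAC, 2208 to 2814 in CONT), B cells (7.82 to 19.0 and 34.4 to 91.5), T cells (6.12 to 7.39 and 7.59 to 13.6) and neutrophils (127 to 1042 and 2.76 to 47.7) did not overlap between groups. Epididymis markers were at 202, 3.46 and 9958 CPM in CONT and at 0.121 to 0.944 CPM in CAC, and testis markers at 928 CPM in CONT replicate 2 and 1249 CPM in CAC replicate 3 against 0 to 12.3 CPM in the other 4. Erythroid markers were at 5678 CPM in CONT replicate 1, 261 and 392 CPM in CONT replicates 2 and 3 and 1853 to 2439 CPM in CAC. The part of all these markers in the results below was not tested. In whole tissue, fewer cells of a type and less RNA per cell cannot be told apart.

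Compared per length of transcript, as FPKM, which divides reads by gene length and library total, the 10 genes spanned a wide range of levels. Apoe was the first and Lpl the second in each of the 6 libraries, and Lmf1 was the last in each. The mean FPKM of Apoe was 1439 ± 178 (SD, n = 3) in CONT and 2326 ± 264 in CAC. That of Lpl was 933 ± 525 and 605 ± 231, and that of Apoc1, the next in order, 130 ± 105 and 219 ± 77.5. Gpihbp1 (83.9 in CONT and 77.6 in CAC), Angptl4 (54.4 and 83.9) and Lrp1 (31.7 and 88.6) changed places between libraries, Gpihbp1 being above Angptl4 in 3 of 6 and Angptl4 above Lrp1 in 3 of 6. Angptl2 (20.3 and 22.0) was below Lrp1 in all 6 libraries and above Angptl8 (19.7 and 11.1) in 4 of 6. Vldlr (5.91 and 3.65) was below Angptl8 in 4 of 6 libraries and above Lmf1 (1.68 and 1.45) in all 6.

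The enzyme and the proteins it needs were described first. Lpl, on chromosome 8 (GRCm38, 68880491 to 68907448, plus strand), had 19874, 8448 and 8048 CPM in CONT replicates 1 to 3 and 11047, 5649 and 6558.5 CPM in CAC replicates 1 to 3. The highest library was CONT replicate 1, followed by CAC replicate 1, and the other 4 lay close together, those of CAC below those of CONT. The log2 fold change was -0.65 (SE 0.54, 95% interval -1.94 to 0.65, edgeR adjusted p = 0.622). Without CONT replicate 1 it was -0.07 (SE 0.39, edgeR adjusted p = 0.984), so the size of the difference rested on that library.

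Gpihbp1, the endothelial anchor of the enzyme (chromosome 15, 75596628 to 75599481), had 526, 117 and 152 CPM in CONT and 352, 150 and 224 CPM in CAC. As for Lpl, replicate 1 of either group was its highest library. Its log2 fold change of -0.13 (SE 0.63, edgeR adjusted p = 0.951) turned to 0.86 (SE 0.42, edgeR adjusted p = 0.400) without CONT replicate 1. Summed endothelial markers, among them Pecam1 and Cdh5, had the same outlying library, at 4298 CPM in CONT replicate 1 against 2040 and 2189 CPM in CONT replicates 2 and 3. In CAC the sums were 3261, 2762 and 3245 CPM. Cldn5 (627 against 113 and 92.0 CPM) and Egfl7 (620 against 116 and 106 CPM) exceeded the other CONT libraries most. Vwf alone was lower in CONT replicate 1 (71.3 against 216 and 179 CPM). Lmf1, the chaperone of the endoplasmic reticulum that the lipase needs to fold (chromosome 17, 25579174 to 25662826), varied little, with 34.0, 25.2 and 25.2 CPM in CONT and 26.0, 20.9 and 25.0 CPM in CAC. Its log2 fold change was -0.23 (SE 0.21, 95% interval -0.73 to 0.27, edgeR adjusted p = 0.651), and -0.06 without CONT replicate 1.

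The angiopoietin-like proteins that act on the lipase showed large spreads within both groups. Angptl4, which inactivates the enzyme in adipose tissue during fasting (chromosome 17, 33773750 to 33781575, minus strand), had 308, 146 and 212 CPM in CONT and 585, 211 and 213 CPM in CAC. A single library, CAC replicate 1, carried its higher CAC mean of 336 ± 216 CPM (SD, n = 3) against 222 ± 81.1 CPM in CONT. The log2 fold change was 0.60 (SE 0.50, edgeR adjusted p = 0.620) with all libraries, 0.92 without CONT replicate 1 and -0.04 without CAC replicate 1.

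Angptl8, a feeding-induced member of the family (chromosome 9, 21835510 to 21837347), was low in all libraries. It had 42.9, 13.1 and 7.41 CPM in CONT and 4.48, 6.86 and 23.9 CPM in CAC. Its range was wide in both groups, and each held 1 library well above the other 2. The log2 fold change was -0.84 (SE 0.85, 95% interval -2.88 to 1.19, edgeR adjusted p = 0.691) and became 0.21 without CONT replicate 1. The gene lies inside Dock6 on the opposite strand, whose 14048 reads exceed the 1854 of Angptl8, and although the 2 share 0 exon bases, the strand setting of the counting is not given in the sources used here.

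Angptl2, a secreted member of the same family known for its part in adipose inflammation rather than in lipase control (chromosome 2, 33216069 to 33247717), had 61.4, 173 and 244 CPM in CONT and 236, 169 and 103 CPM in CAC. The groups covered nearly the same range, with a log2 fold change of 0.09 (SE 0.53, edgeR adjusted p = 0.963). It was -0.29 without CONT replicate 1, the lowest library.

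Because CONT replicate 1 had high Lpl, Gpihbp1 and Angptl4 at once, pairs of genes were also compared within a library, where the library scaling cancels. The length pattern of CONT replicate 1 does not cancel in this way between genes of unlike length. Lpl has 10478 bases, Gpihbp1 2554, Angptl4 3286 and Angptl8 865. How far that pattern shaped the ratios was not tested. In all, 16 ratios were tested by an exact two-sided permutation test, which with 3 against 3 libraries cannot give a p below 0.1, and p-values were adjusted over the 16. The ratio of Angptl4 to Lpl counts was 0.0155, 0.0173 and 0.0263 in CONT and 0.0530, 0.0373 and 0.0324 in CAC. Every CAC library was thus above every CONT library, by 2.09-fold on average (exact permutation p = 0.1, adjusted 0.267), and the difference of 1.06 on the log2 scale stayed between 0.86 and 1.29 when each library was left out in turn. The ratio of Gpihbp1 to Lpl was also higher in every CAC library (0.0318, 0.0266 and 0.0342) than in any CONT library (0.0265, 0.0138 and 0.0189), by 1.61-fold (exact permutation p = 0.1, adjusted 0.267). On the log2 scale the difference was 0.69, with 0.46 without CONT replicate 2 and 0.92 without CONT replicate 1. The CONT and CAC libraries closest to each other, CONT replicate 1 and CAC replicate 2, differed little.

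Lmf1 to Lpl (log2 difference 0.35, exact permutation p = 0.5), Angptl8 to Lpl (-0.26, p = 0.9) and Angptl4 to Angptl8 (1.32, p = 0.4) overlapped between groups. With each library left out in turn, the log2 difference ran from 0.07 to 0.58 for the first, -1.05 to 0.53 for the next and 0.33 to 2.26 for the last. Set against the summed adipocyte markers, Lpl was lower in every CAC library, at 0.210, 0.148 and 0.159 against 0.336, 0.320 and 0.260 in CONT. The 1.78-fold difference (exact permutation p = 0.1, adjusted 0.267) corresponded to -0.83 on the log2 scale, but was -0.03 when each marker was given the same weight as a mean of log2 CPM. Angptl4 (0.23, exact permutation p = 0.9) and Angptl8 (-1.09, exact permutation p = 0.3, from -1.83 without CAC replicate 3 to -0.45 without CAC replicate 1) against the adipocyte sum, and Gpihbp1 against the endothelial sum (-0.09, exact permutation p = 0.7), overlapped between groups. With equal weight for each marker, Angptl4 was higher by 1.03 (exact permutation p = 0.1, not adjusted) with no overlap, Angptl8 was at -0.29 (exact permutation p = 0.9) and Gpihbp1 at -0.03 (exact permutation p = 1). Equal weight lets Lep (3.996 and 0.415 CPM in CAC replicates 2 and 3) and Adrb3 (142 and 45.1 CPM there) count as much as Adipoq. How far these markers set the equal-weight values of Lpl, Angptl4 and Angptl8 was not tested.

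**Figure D2:**
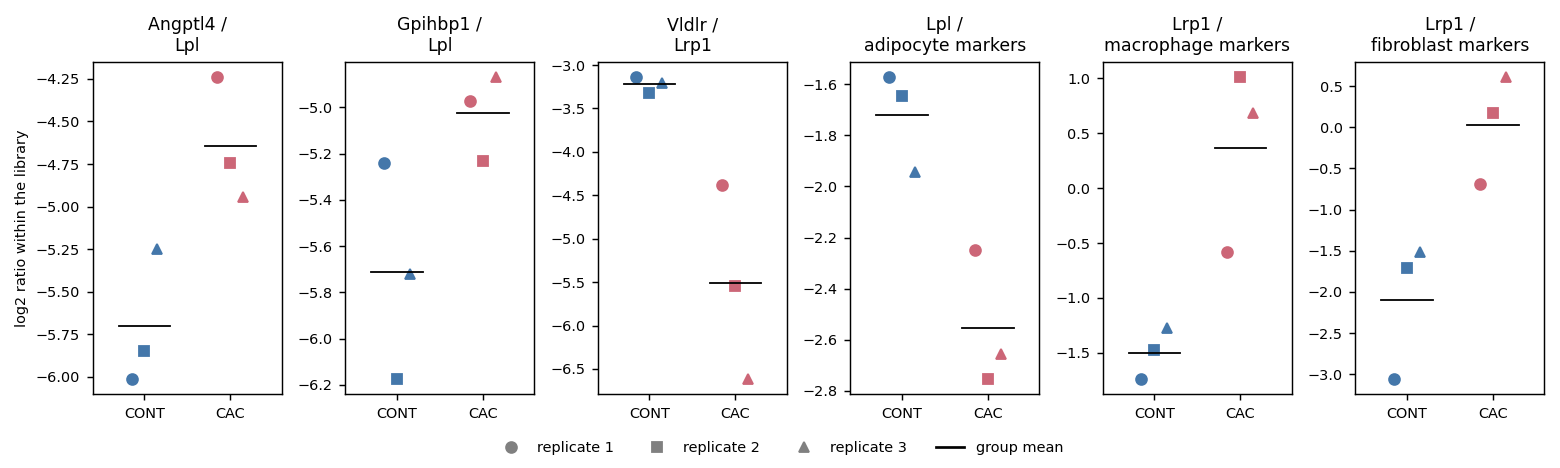
Log2 ratio within each library (vertical axes, of different range and not starting at 0) for the 6 ratios whose CONT (blue) and CAC (red) libraries did not overlap, with a line at each group mean and the replicate number given by the marker shape. Angptl4 and Gpihbp1 lie higher against Lpl in CAC, Lpl lies lower against the adipocyte marker sum, and Lrp1 lies higher against Vldlr and against the macrophage and the fibroblast and progenitor marker sums.

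Among the apolipoproteins, Apoe encodes the ligand by which remnant particles bind their receptors, and in adipose tissue both adipocytes and macrophages make it (chromosome 7, 19696109 to 19699188, minus strand). It had 4302, 3435 and 3735 CPM in CONT and 6103, 6787 and 5380 CPM in CAC. All CAC libraries were above all CONT libraries, with means of 3824 ± 440 and 6090 ± 704 CPM (SD, n = 3 each, exact permutation p = 0.1, the smallest possible). The log2 fold change was 0.67 (SE 0.33, 95% interval -0.11 to 1.45, edgeR adjusted p = 0.423). DESeq2 gave a like value of 0.69 (SE 0.21) but an adjusted p of 0.0265, which rose above 0.05 when CONT replicate 2 (0.112), CONT replicate 3 (0.0872), CAC replicate 1 (0.0715) or CAC replicate 2 (0.146) was left out, and fell to 0.000134 without CONT replicate 1. Over all alternatives the log2 fold change of Apoe stayed between 0.60 and 0.88 and its adjusted p between 0.000134 and 0.778. Summed macrophage markers, 885 to 2395 CPM in CONT and 1145 to 1995 CPM in CAC, overlapped between groups. The ratio of Apoe to that sum overlapped too, being 4.86, 1.45 and 1.56 in CONT and 3.06, 5.93 and 4.04 in CAC (log2 difference 0.91, exact permutation p = 0.3, from 0.60 without CONT replicate 2 to 1.48 without CONT replicate 1).

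Apoc1, which lies beside Apoe on the same strand (19689481 to 19692660), encodes a small apolipoprotein that restrains lipase and receptor binding. It had 231, 72.2 and 57.0 CPM in CONT and 124, 209 and 266 CPM in CAC. CONT replicate 1 fell among the CAC libraries, and the other 2 CONT libraries were below all 3 of them. The log2 fold change of 0.74 (SE 0.59, edgeR adjusted p = 0.603) became 1.64 (SE 0.37, edgeR adjusted p = 0.233) without CONT replicate 1, but 0.48 without CONT replicate 2, 0.41 without CONT replicate 3 and 0.49 without CAC replicate 3. DESeq2 gave 0.74 (adjusted p = 0.572) with all libraries and 1.69 (adjusted p = 0.000466) without CONT replicate 1. The transcript is short, 744 bases, in the class of lengths that was high in CONT replicate 1. With an offset for gene length, all libraries kept, the log2 fold change was 0.98. Apoc1 to macrophage markers (log2 difference 1.20, exact permutation p = 0.4, from 0.56 without CONT replicate 3 to 2.29 without CONT replicate 1) and Apoe to Apoc1 (-0.28, exact permutation p = 0.8) overlapped between groups.

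Of the receptors, Lrp1 encodes a large endocytic receptor that takes up remnants carrying apolipoprotein E, along with many protease complexes (chromosome 10, 127538161 to 127621148, minus strand). Lrp1 had 265, 850 and 987 CPM in CONT and 1329, 2313 and 2133 CPM in CAC. Every CAC library exceeded every CONT library, and CONT replicate 1 was far the lowest of the 6. The log2 fold change was 1.46 (SE 0.54, 95% interval 0.17 to 2.74, unadjusted p = 0.0317 and adjusted p = 0.338 by edgeR). By DESeq2 it was 1.49 (SE 0.51, adjusted p = 0.0571), and its adjusted p was 0.00749 (log2 fold change 1.12) without CONT replicate 1 and 0.0324 without CONT replicate 3, but 0.135 without CONT replicate 2, 0.0503 without CAC replicate 1, 0.285 without CAC replicate 2 and 0.217 without CAC replicate 3. Its transcript of 17717 bases belongs to the class of lengths that was low in CONT replicate 1, and edgeR gave 1.08 (SE 0.33, adjusted p = 0.256) without that library and 1.37 (SE 0.42, adjusted p = 0.265) with the offset for gene length. The unadjusted edgeR p rose above 0.05 when CONT replicate 2 (0.0518), CAC replicate 2 (0.0915) or CAC replicate 3 (0.0715) was left out.

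Vldlr, the receptor for very low density lipoproteins that works beside lipoprotein lipase in adipose tissue (chromosome 19, 27216484 to 27254231), had 30.1, 85.0 and 107 CPM in CONT and 63.8, 49.4 and 21.7 CPM in CAC. CONT replicate 1 lay within the CAC range, and the other 2 CONT libraries were above all CAC libraries. Its log2 fold change was -0.72 (SE 0.55, 95% interval -2.05 to 0.61, edgeR adjusted p = 0.592), and -1.08 (SE 0.47, edgeR adjusted p = 0.368) without CONT replicate 1, but -0.34 without CONT replicate 3 and -0.38 without CAC replicate 3. Without that library Apoe, Apoc1 and Lrp1 were higher and Vldlr lower in CAC with no overlap, where 19.5% of all genes were higher and 21.2% lower in this way.

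The 2 receptors parted when set against each other. The ratio of Vldlr to Lrp1 counts was 0.114, 0.09996 and 0.109 in CONT, and 0.0480, 0.0214 and 0.0102 in CAC. In CONT it was nearly constant, and CONT replicate 1 had low levels of both genes. Both belong to the class over 8000 bases, which was low in that library. The ratio was 4.90-fold lower in CAC (log2 difference -2.29, exact permutation p = 0.1, adjusted 0.267), and lay between -2.86 and -1.74 with each library left out in turn. Lrp1 was also higher against the macrophage sum (0.666, 2.02 and 1.60 against 0.2998, 0.359 and 0.412, a 3.65-fold difference, exact permutation p = 0.1, adjusted 0.267). Against the sum of fibroblast and progenitor markers, itself lower in CAC, it was 4.36-fold higher (exact permutation p = 0.1, adjusted 0.267). Of the 9 markers in that sum, 8 had a negative fold change, among them Col3a1 (539 to 982 CPM in CONT and 127 to 317 CPM in CAC), and 1 a positive one, Dcn, the proteoglycan decorin (780 to 973 and 1099 to 1498 CPM). Angptl2 against the same sum overlapped between groups (log2 difference 0.72, exact permutation p = 0.3), with 0.26 without CONT replicate 1 and 1.07 without CONT replicate 3. With equal weight for each marker the difference was 1.16 with no overlap (exact permutation p = 0.1, not adjusted).

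Promoter windows are shown for Apoe and Lrp1, the genes whose groups did not overlap, and for Vldlr, whose ratio to Lrp1 separated the groups. They hold the sequence just before the transcription start, from a table of RefSeq (GRCm38.p6) windows in which 6 of the 10 genes were matched (Angptl2, Apoe, Angptl8, Lrp1, Lmf1 and Vldlr). Each has 250 bases, written 5′ to 3′ on the strand of the gene, with the GC box GGGCGG, found here as its reverse complement, in capitals. The window of Apoe is chr7:19699189-19699438 (minus strand), that of Lrp1 chr10:127621149-127621398 (minus strand) and that of Vldlr chr19:27216234-27216483 (plus strand).
Apoe: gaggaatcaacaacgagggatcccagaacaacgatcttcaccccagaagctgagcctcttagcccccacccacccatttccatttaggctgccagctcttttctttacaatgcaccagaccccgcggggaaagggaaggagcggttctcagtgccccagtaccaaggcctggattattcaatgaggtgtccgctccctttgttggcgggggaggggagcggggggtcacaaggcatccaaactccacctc
Lrp1: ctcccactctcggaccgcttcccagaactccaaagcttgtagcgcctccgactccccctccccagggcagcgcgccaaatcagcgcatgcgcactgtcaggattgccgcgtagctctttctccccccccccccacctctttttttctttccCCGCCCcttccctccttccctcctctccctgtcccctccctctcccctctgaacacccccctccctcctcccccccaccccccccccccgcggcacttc
Vldlr: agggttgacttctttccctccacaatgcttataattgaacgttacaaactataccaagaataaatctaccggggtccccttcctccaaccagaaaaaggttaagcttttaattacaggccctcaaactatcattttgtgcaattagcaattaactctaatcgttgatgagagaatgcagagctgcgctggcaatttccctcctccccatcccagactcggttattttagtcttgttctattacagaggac
The GC content was 57.2% for Apoe, 67.2% for Lrp1 and 41.6% for Vldlr. Lrp1 held 1 GC box, at position -99 counted from the start, and these windows of Apoe and Vldlr held none. The GC box, searched for after the windows had been read, is in 32.7% of all 32851 windows. None of the 3 windows held any of the other motifs sought on both strands, listed here with the share of all windows that hold them. These were AGGTCA (14%), its direct repeats with 1 base (1.98%) or 4 bases (1.48%) between and at most 1 letter different in each repeat, ACANNNTGT (5.84%), TCACNCCAC (1.05%), CACGTG (6.02%), TGTTTAC (3.17%) and TATAAA (12.4%). Apoe and Vldlr have further start sites in RefSeq, and among those windows 1 of Apoe held TATAAA and 1 of Vldlr held GGGCGG.

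**Figure D3:**
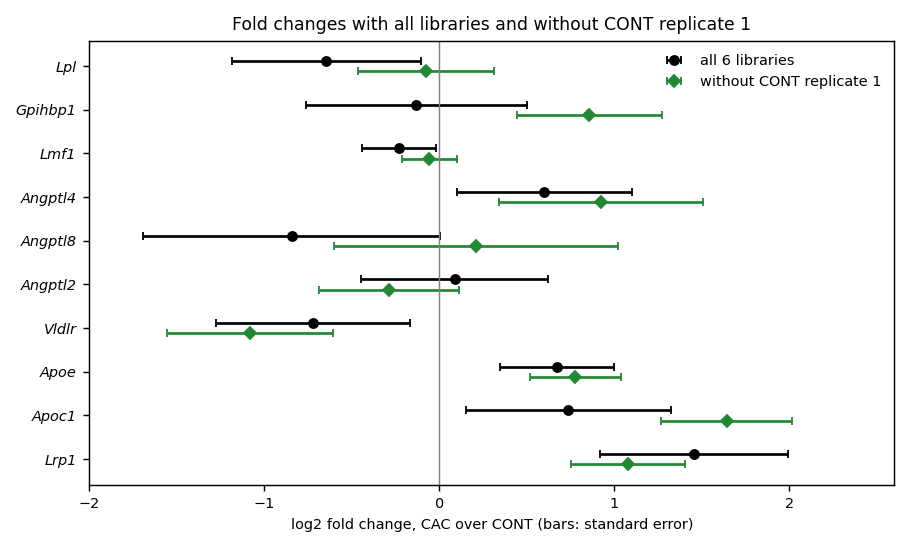
Log2 fold change of CAC over CONT (horizontal axis) with its standard error by edgeR, for each of the 10 genes, from all 6 libraries (black circles) and without CONT replicate 1 (green diamonds). Apoe (0.67 and 0.78), Apoc1 (0.74 and 1.64) and Lrp1 (1.46 and 1.08) lie above 0 and Vldlr (-0.72 and -1.08) below 0 in both fits, while Gpihbp1, Angptl8 and Angptl2 change sign and Lpl moves close to 0.

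The 10 genes followed the length pattern of CONT replicate 1 only in part. Relative to CONT replicates 2 and 3, the short Angptl8 (865 bases) and Apoc1 (744 bases) were high there, by log2 values of 2.11 and 1.85 (class median 1.22). The long Lrp1 and Vldlr (10068 bases) were low, at -1.79 and -1.66, well below their class median of -0.45. Lpl, however, is 10478 bases long and was high at 1.27, and Gpihbp1, at 2554 bases, was high at 1.98, against a median of 0.26 for genes above 2000 and up to 4000 bases. Angptl2 (6286 bases), at -1.74, was also far from the median of -0.07 in its class. Apoe (2138 bases), at 0.26, was at the median of its class. Angptl4 (3286 bases), at 0.80, was above that median, and the long Lmf1 (13471 bases) was high at 0.43.

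**Figure D4:**
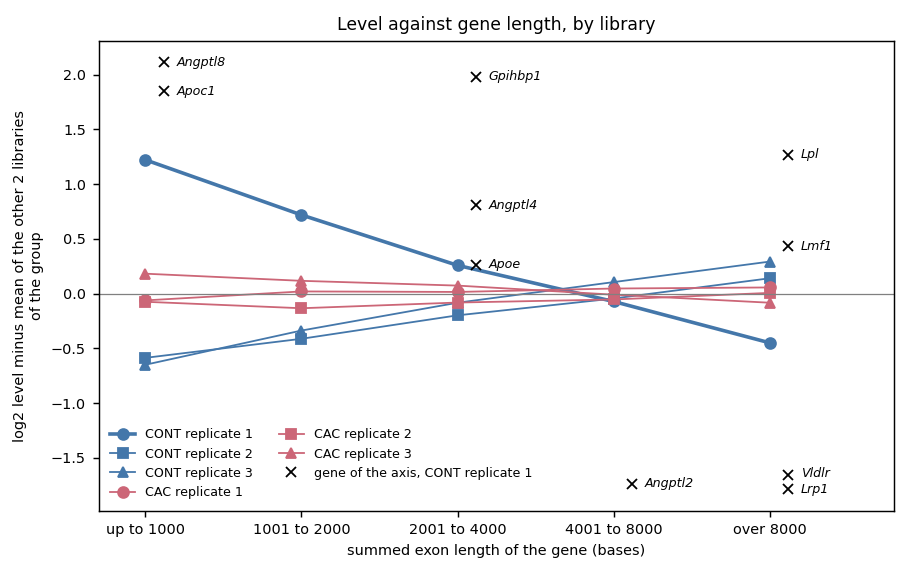
Median log2 level of each library relative to the other 2 of its group (vertical axis) over 5 classes of gene length in bases (horizontal axis), with lines for the 6 libraries and crosses for the 10 genes in CONT replicate 1. The line of CONT replicate 1 runs from 1.22 for the shortest genes to -0.45 for the longest, the CAC lines stay near 0, and several genes, Lpl and Gpihbp1 among them, lie far from the line of their library.

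The wider pathway was read from 4 lists, chosen with earlier results of these data known. In none of them did a gene have an adjusted p under 0.05 by edgeR. Of the 25 partners of lipoprotein lipase, 21 passed the filter on low counts, of which 1 was higher and 0 lower at an unadjusted p under 0.05, where 6.31% of all genes were higher and 6.95% lower. The median log2 fold change was -0.04, with -0.27 when CAC replicate 1 and 0.34 when CONT replicate 3 was left out. Apoc3, which encodes an inhibitor of the lipase, was the one that was higher, with 2.23, 3.33 and 2.26 CPM in CONT and 1.64, 31.9 and 83.3 CPM in CAC. CAC replicates 2 and 3 were high and CAC replicate 1 was the lowest of all, for a log2 fold change of 3.89 (SE 1.21, adjusted p = 0.289 by edgeR and 0.00463 by DESeq2). Its unadjusted edgeR p rose above 0.05 with the replicate number as a block (0.0831) and without CONT replicate 1 (0.0714), CONT replicate 3 (0.0607) or CAC replicate 3 (0.0505), as did the p by voom (0.0717) and on log2(FPKM + 1) (0.0765). Without CAC replicate 3 it was 2.69 by edgeR, with a DESeq2 adjusted p of 0.161, and it was 2.89 with the replicate number as a block and 2.41 on log2(FPKM + 1). Furin, the protease that cleaves angiopoietin-like proteins and the lipase itself, was at 0.71 (SE 0.34, edgeR adjusted p = 0.419, and 0.43 without CONT replicate 1) with no overlap, and Lmf2, the relative of Lmf1, at -0.40 (SE 0.17, edgeR adjusted p = 0.388), also with no overlap. Apoc2, the activator of the lipase, had at most 1 read in any library, and Apoa5 at most 23, and neither was tested.

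Among 23 genes of the LDL receptor family and uptake, 22 were tested, of which 2 (Lrp1 and Mylip) were higher (background 6.31%) and 0 lower (6.95%) at an unadjusted p under 0.05. The median was 0.14, and from -0.09 without CONT replicate 1 to 0.24 without CONT replicate 3. Mylip encodes the ubiquitin ligase that sends the LDL and VLDL receptors to degradation, and is a known target of the liver X receptor. It had 56.9, 76.5 and 84.4 CPM in CONT and 157, 202 and 259 CPM in CAC. All CAC libraries were above all CONT libraries, and the log2 fold change was 1.504 (SE 0.27, adjusted p = 0.215 by edgeR and 2.9e-05 by DESeq2), with values of 1.32 to 1.72 under the alternatives. Lrp2, a receptor of absorptive epithelia, was at -2.59 (SE 1.14, edgeR adjusted p = 0.393), and Lrpap1, the chaperone of the family, at -0.71 (SE 0.32, edgeR adjusted p = 0.405). For both, CONT replicate 1 lay among the CAC libraries, and without it they were at -3.12 and -0.89.

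Of 19 apolipoprotein genes 11 were tested, with 1 higher (Apoc3, background 6.31%) and 0 lower (6.95%) at an unadjusted p under 0.05 and a median of 0.39, from 0.17 without CAC replicate 3 to 0.81 without CAC replicate 1 by edgeR, and -0.40 by DESeq2 without CAC replicate 3. Clu, at -0.42 (edgeR adjusted p = 0.522, and -0.15 without CONT replicate 1), and Apoa2, at 2.05 (edgeR adjusted p = 0.540), overlapped between groups, and Apoa2 rested on CAC replicate 3, with 233 reads there against 5 to 14 elsewhere. All 7 angiopoietin-like genes were tested, with 0 higher (background 6.31%) and 2 lower (6.95%) at an unadjusted p under 0.05 and a median of -0.87, from -1.12 without CONT replicate 3 to -0.39 without CONT replicate 1. Angptl1 had 5.08, 4.25 and 3.75 CPM in CONT and 1.56, 0.767 and 0.227 CPM in CAC, a log2 fold change of -2.35 (SE 0.71, adjusted p = 0.284 by edgeR and 0.0335 by DESeq2) with no overlap. The DESeq2 value rose above 0.05 without CONT replicate 1 (0.101), 2 (0.158) or 3 (0.119) or CAC replicate 2 (0.158), and the unadjusted edgeR p was 0.0630 without CAC replicate 2. Angptl7, at -2.82 (edgeR adjusted p = 0.376), had its highest library, CONT replicate 2, at 6.92 CPM and the others at 0.271 to 0.981 CPM, and was at -0.64 without that library. Its unadjusted edgeR p lay close to 0.05 and rose above it without any one library other than CONT replicate 3, with the replicate number as a block, and with mitochondrial genes removed.

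**Figure D5:**
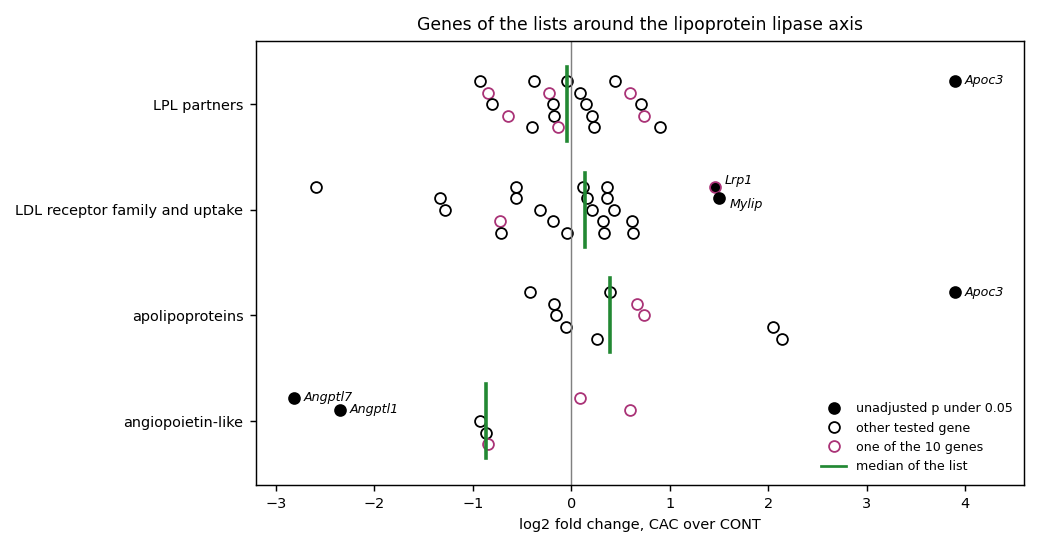
Log2 fold change of CAC over CONT (horizontal axis) by edgeR for the tested genes of 4 lists (rows), with filled circles for an unadjusted p under 0.05, purple outlines for the 10 genes and a green line at the median of each list. Apoc3, Lrp1 and Mylip lie to the right and Angptl7 and Angptl1 to the left, and the medians run from -0.87 for the angiopoietin-like genes to 0.39 for the apolipoproteins.

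Genes with the most similar course over the 6 libraries were sought for 4 of the genes, by the root mean square difference of centred log2 CPM. For Lpl, whose own spread was 0.59, these were Lysmd2 (difference 0.0898), 9130401M01Rik (0.1001) and Ska2 (0.111). For Angptl4, with a spread of 0.63, Klf4 (0.196), Sox17 (0.198) and Cyp4b1 (0.202) came closest, and all 3 had their highest library in CAC replicate 1. Gpihbp1 (spread 0.76) was followed most closely by Tspo2 (0.106, at only 0.219 to 1.25 CPM), Rasip1 (0.147) and Hspb1 (0.160). For Angptl8, with the widest spread of the 4 (1.11), the nearest were a locus listed without a gene name (0.228), Gm14567 (0.329) and Gm13889 (0.380). The unnamed locus was at 0.123 to 1.52 CPM and Gm14567 at 0.205 to 1.61 CPM, so both had few reads. All these genes were picked from 17296 over 6 libraries, and a shared control was not tested.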

How the data were processed

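Messenger RNA from eWAT of 3 CONT and 3 CAC mice was sequenced after poly(A) selection, and groups were taken from the sample labels. The authors cleaned the reads, aligned them with HISAT2 2.0.5 to the Ensembl release 94 mouse genome (GRCm38) and counted reads per gene with featureCounts 1.5.0-p3. The deposited counts are whole numbers without normalization, and the FPKM values deposited by the authors divide them by gene length and a library total. Reads were not processed again.

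Counts were tested in R 4.3.3 with edgeR 4.0.16 (robust quasi-likelihood test, TMM normalization, filterByExpr, condition as the only term, Benjamini-Hochberg adjustment over 17296 genes). CPM values use the TMM-adjusted library size. FPKM values were tested with limma 3.58.1 over genes with at least 0.5 FPKM in at least 3 libraries, on log2(FPKM + 1) or log2(FPKM + 0.1), a scale that understates changes of low genes. Within-library ratios had 0.5 added to each count. Other alternatives were DESeq2 1.42.0, the likelihood ratio test, voom with quality weights, other normalizations and filters, removal of mitochondrial genes, the replicate block, a gene-length offset and leaving out each library. The gene-length offset without CONT replicate 1 and the overlap counts without it were added after seeing the data. The edgeR test was tried on simulated counts as a check of the code, and no result here rests on that. The common dispersion was 0.265, which takes in differences between mice and between libraries, and genes with few reads carry counting error besides.

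The 10 genes and all lists were chosen with earlier results of these data known. Named beyond them were, from each of 4 lists, the 3 other genes with the smallest unadjusted p (1 such result is not reported here), and for Lpl, Angptl4, Angptl8 and Gpihbp1 the 3 genes with the nearest profile. Lists are described by counts and medians only.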

Additional observations from a re-analysis of the deposited data

How the results depend on the processing

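Apoe, Apoc1, Lrp1, Lpl, Lmf1 and Vldlr kept their direction under all 26 alternatives, with log2 fold changes of 0.60 to 0.88, 0.41 to 1.69, 1.08 to 1.84, -0.98 to -0.03, -0.49 to -0.01 and -1.08 to -0.30. The other 4 genes turned, and the cause was not tested. Gpihbp1, between -0.50 and 0.96 in all, became 0.12 with the replicate block, 0.42 with voom, 0.13 on either FPKM scale, 0.86 (edgeR), 0.90 (DESeq2) and 0.96 (gene-length offset) without CONT replicate 1, and 0.13 (edgeR) and 0.12 (DESeq2) without CAC replicate 2. Angptl8 became 0.21, 0.27 and 0.25 in these 3 fits without CONT replicate 1, and Angptl2 -0.29, -0.25 and -0.24. Angptl2 was also -0.25 with voom and, without CAC replicate 1, -0.16 (edgeR) and -0.18 (DESeq2), where Angptl4 was -0.0361 and -0.0497. With a library left out, edgeR values ran from -0.0361 to 0.92 for Angptl4, -1.88 to 0.21 for Angptl8, -0.29 to 0.55 for Angptl2 and -1.19 to 2.61 for Apoa2. Apoa2 was -1.19 without CAC replicate 3 by either tool. Over the alternatives Apoc3 lay between 2.41 and 4.51, Furin 0.43 and 0.93, Lmf2 -0.46 and -0.19, Lrp2 -3.60 and -1.07, Lrpap1 -1.02 and -0.50, Clu -0.53 and -0.06, Angptl1 -3.11 and -0.85 and Angptl7 -3.33 and -0.64.

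The ratio of Angptl8 to Lpl turned to 0.03 without CONT replicate 1 and 0.53 without CAC replicate 1, with a range of -1.05 to 0.53 over the libraries left out. Apoe to Apoc1 ranged from -0.81 to 0.10 (0.10 without CONT replicate 3, 0.05 without CAC replicate 3). Angptl4 to adipocyte markers ranged from -0.13 (without CAC replicate 1) to 0.43 (1.03 with equal weight for each marker), and Gpihbp1 to endothelial markers from -0.36 to 0.23 (0.23 without CONT replicate 1, 0.13 without CAC replicate 2). FPKM in place of counts, tried for the 7 ratios of 2 genes, changed the direction of 0 of them.

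The number of the 10 genes with an adjusted p under 0.05 was 0 by edgeR and 0 with any library left out. It was 1 by DESeq2 (Apoe), 1 by voom (Apoc1), and 0 to 3 by DESeq2 with a library left out (3 without CONT replicate 1, Apoe, Apoc1 and Lrp1). With an unadjusted p under 0.05 there was 1 by edgeR, 0 to 3 with a library left out (0 without CONT replicate 2, CAC replicate 2 or CAC replicate 3, and 3 without CONT replicate 1), 2 by DESeq2 with 2 to 5 on leaving out a library, 2 by the likelihood ratio test, 4 by voom, 2 with the gene-length offset and 3 with that offset without CONT replicate 1. The share of all genes with an unadjusted p under 0.05 was 13.3% by edgeR (7.24 to 15.6% with a library left out), 9.73% by DESeq2 over every gene given a p (7.94 to 13.2%), 13% by the likelihood ratio test, 28.4% by voom, 14% with the offset and 15.8% with the offset without CONT replicate 1. Over all genes, 0 had an adjusted p under 0.05 by edgeR, 1 with the replicate block, 959 by DESeq2 (2104, 627 and 861 without CONT replicates 1 to 3, and 1505, 700 and 602 without CAC replicates 1 to 3), 396 by the likelihood ratio test, 956 by voom, and 5 and 6 on log2(FPKM + 1) and log2(FPKM + 0.1). The median of all genes moved from -0.06 to 0.16 and -0.25 with DESeq2 without CONT replicate 2 and CAC replicate 3. Without CONT replicate 1, 1 gene (Vldlr) was lower with no overlap, beside 21.2% of all genes. Apoe, Apoc1 and Lrp1 were higher in this way, beside 19.5% of all genes.

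Replicate numbers did not pair the mice. The deviations of same-numbered libraries correlated at 0.31, -0.15 and -0.22, and the replicate block changed no call among the 10 genes. CONT replicate 1, with 11.2 reads per CPM and 30.2% mitochondrial counts, had the least depth.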
